A study of Homo sapiens with 6 samples.

Results

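The mRNA levels of 33 genes encoding iron-dependent demethylases and dioxygenases were examined in K562 cells with and without induced expression of Flag-tagged PCBP1. The genes were chosen by name, as enzymes that require iron and 2-oxoglutarate, with the HIF prolyl hydroxylases left out. The list was not complete: relatives such as KDM3A, KDM5C and KDM8 lay outside it and were counted apart, among other 2-oxoglutarate oxygenases. The members made up 33 of 62252 genes with a matched transcript, and 33 of 33 passed the filter on low counts (a mean estimated count above 10 over the 6 libraries). The list held 3 TET enzymes, 13 histone demethylases, 9 members of the ALKBH and FTO family and 8 other hydroxylases.

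K562 is a human line derived from chronic myelogenous leukemia with erythroid features. All 6 polyA RNA-seq libraries came from stable K562 cells carrying a doxycycline-inducible Flag-PCBP1 cassette exchanged into the AAVS1 locus of a loxP-flanked parental clone. The 3 libraries labelled Control were grown without doxycycline (−Dox) and the 3 titled PCBP1 OE, with the treatment Dox, were grown with it (+Dox), so the groups differed in doxycycline itself as well as in Flag-PCBP1, and those effects cannot be told apart. The doxycycline dose and duration for these libraries were not given in the sources used here, and nothing in the labels says whether replicates were separate cultures, so p-values measure the spread between these libraries, which may be technical. The parental line of both groups was selected with 10 µg/ml blasticidin and expanded from a clone, cells with the exchanged cassette were selected with puromycin, and Flag-PCBP1 was driven by a tet-inducible promoter. Each library held between 70905656 and 84177316 estimated counts.

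PCBP1 was examined first, as the induced gene. Its level was 247.5, 269.5 and 266.9 CPM (estimated counts scaled by library size, with TMM factors for composition) in the −Dox libraries and 1030, 936.4 and 1037 CPM in the +Dox libraries. The groups did not overlap, and PCBP1 (chr2:70087477-70089203) rose 3.83-fold (log2 fold change 1.94, SE 0.055, edgeR adjusted p = 5.22e-10), with an exact two-sided permutation p of 0.1, the smallest that 3 against 3 libraries allow. Deposited values did not separate the Flag cassette from the endogenous gene.

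The K562 identity of the libraries was checked with marker lists. All 7 erythroid markers reported were detected. By edgeR, 3 of 7 were higher in +Dox, against 8.16% of all genes: ALAS2 (30.4 to 87.8 CPM), TAL1 (57.7 to 78.3 CPM) and KLF1 (79.1 to 108.4 CPM). The summed level of the 7 markers was 20140, 20450 and 19550 TPM (a measure per transcript length) in −Dox and 19720, 19650 and 19200 TPM in +Dox, with the fetal globin HBG2, whose reads are shared with its near-identical copy HBG1, highest in CPM. HBG1 (6253 to 5801 TPM) and HBE1 (3799 to 3457 TPM) were lower in TPM without overlap, but did not pass (edgeR adjusted p = 0.219 and 0.211). GATA1 was higher without overlap and did not pass either (edgeR adjusted p = 0.113). Of 9 markers of other cells, 6 were tested, 0 passed by edgeR (15.8% of all genes did) and 1 had an unadjusted p under 0.05 (6025 of 21045 genes did). Their summed level was 91.6, 92.5 and 84.1 TPM in −Dox and 76.6, 67.8 and 94.4 TPM in +Dox. MS4A1 was at 0 in all 6 libraries and CD3E and KRT5 were below 0.1 CPM, whereas EPCAM (45.8 and 42.3 CPM) and CD3D (20.9 and 19.2 CPM) were detected in both groups. The part of these erythroid changes in the results below was not tested, and in bulk RNA fewer cells with a gene and less RNA per cell cannot be told apart.

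The enzymes share a catalytic scheme. An iron(II) ion held by the protein and the co-substrate 2-oxoglutarate activate oxygen, which is used to hydroxylate a substrate; in demethylases, hydroxylation of a methyl group leads to its loss. TET enzymes oxidize 5-methylcytosine in DNA, Jumonji-domain proteins remove methyl groups from histone lysines or hydroxylate proteins, and the AlkB family repairs or edits alkylated DNA and RNA. These activities depend on iron supply, and PCBP1 is known as an iron chaperone as well as an RNA-binding protein.

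Of the 33 genes, 2 were higher and 5 lower in +Dox at an edgeR adjusted p under 0.05 (Benjamini-Hochberg over 21045 genes tested). This is 21.2% of the list, against 15.8% of all genes tested (8.16% higher and 7.68% lower). No member exceeded a log2 fold change of 1 in either direction, a limit passed by 4.26% of all genes at any p (1.46% also had an adjusted p under 0.05), and members ranged from -0.59 to 0.42. The median was -0.08 for members and 0.01 for all genes, and 21 of 33 members were below 0 (20 to 24 under 14 alternative analyses), against 48.9% of all genes. The members called were ASPH, RIOX2, ALKBH8, ALKBH2 and KDM2B (lower) and PHYH and KDM7A (higher).

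**Figure D1:**
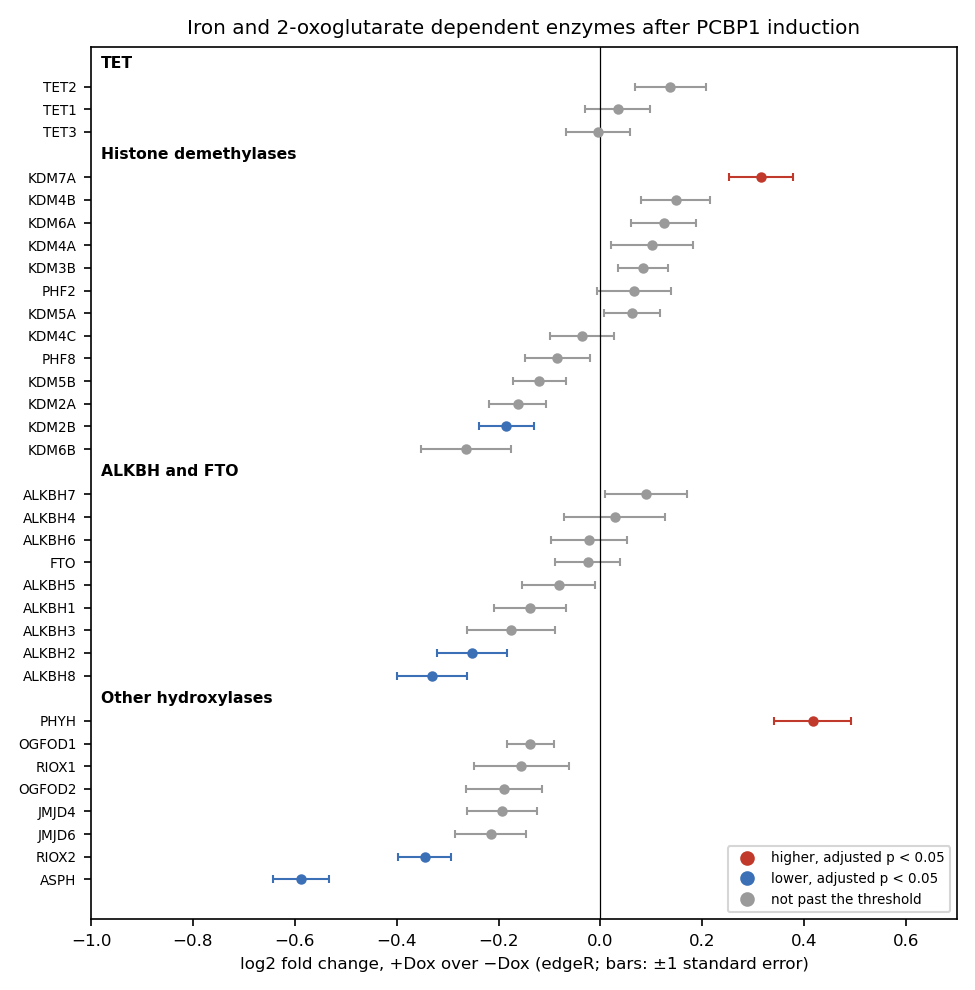
Log2 fold change of each of the 33 genes (+Dox over −Dox, edgeR, horizontal axis; bars give ±1 standard error), grouped by enzyme class, with genes past an adjusted p of 0.05 in red (higher) or blue (lower). The values run from -0.59 (ASPH) to 0.42 (PHYH), and the TET class holds no called gene.

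By DESeq2, 11 members passed, the 7 above with JMJD6, OGFOD1, KDM6B and KDM2A, against 22.2% of the 17770 genes given an adjusted p. With an offset for transcript length, 4 passed (ASPH, RIOX2, PHYH and ALKBH2), against 8.94% of all genes. By limma on log2(TPM + 0.1), 0 of 33 passed, 6 had an unadjusted p under 0.05 and the smallest adjusted p was 0.0509 (ASPH), against 1.61% of all genes (338) past the threshold and 20.3% with an unadjusted p under 0.05.

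The CPM of the groups did not overlap for 16 members, 4 higher and 12 lower, against 33.2% of all genes tested (17.4% higher and 15.8% lower). The 9 that did not overlap but missed the threshold were OGFOD1, KDM6B, KDM2A, JMJD4 and KDM5B, ALKBH1 and RIOX1 (lower) and KDM4B and KDM3B (higher). Summed over members, the level was 467.4, 463.0 and 467.7 TPM in −Dox and 409.9, 441.7 and 409.0 TPM in +Dox. The hydroxylase class gave the largest part of that difference, from 192.1-194.1 TPM in −Dox to 154.3-170.4 TPM in +Dox.

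**Figure D2:**
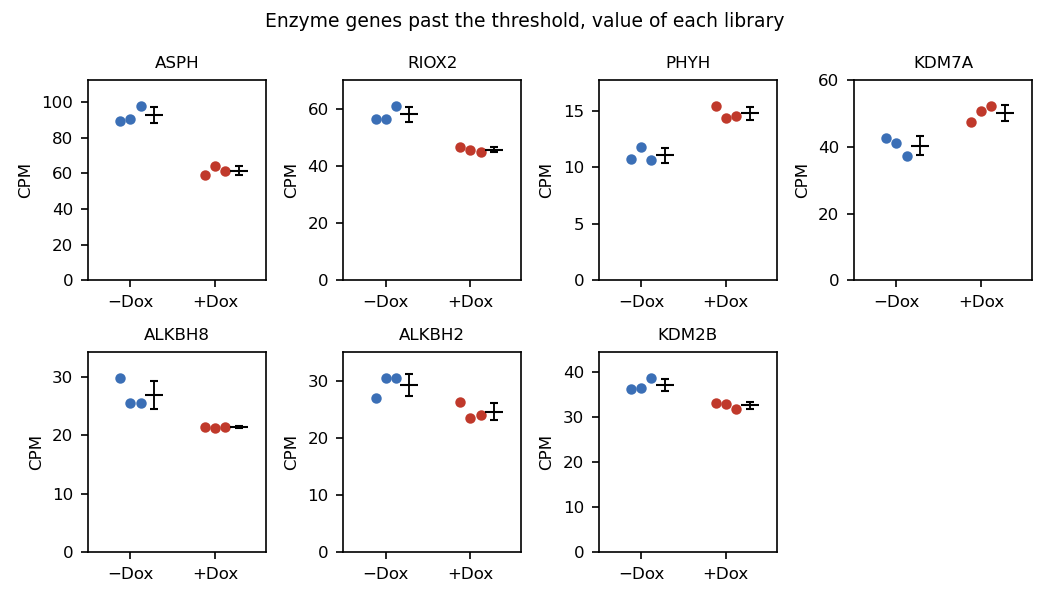
CPM in each library for the 7 genes past the threshold (dots; blue −Dox, red +Dox), with the group mean ± SD in black, n = 3. In every panel the groups do not overlap; ASPH falls from 92.7 to 61.6 CPM on average and PHYH rises from 11.1 to 14.8 CPM.

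Promoter sequence for members that moved is shown so that the called genes can be read beside their start regions. RefSeq (GRCh38.p14) gave promoter entries for 29 of 33 members, and RIOX1, RIOX2, JMJD6 and ASPH had no entry. The 250 bases before the RefSeq start were searched on both strands for the HIF core (ACGTG or GCGTG) and for the GATA motif (AGATAA or TGATAA). A gene was counted where any of its entries held the motif. The HIF core was found for 22 of 29 members (75.9%), against 47.4% of all genes (43.2% of 35116 promoters), and the GATA motif for 3 of 29 (10.3%), against 17.5% of genes (14.6% of promoters). The shares per gene are not like for like, since members had more entries each (44 for 29 genes) than all genes (35116 for 27305). The share per entry is not given for members. Members and all genes were also not matched for GC content, and both forms of the HIF core contain a CG pair. How far GC content set these shares was not tested. A match is a description of these letters in this window and says nothing of binding. The 4 called members with 1 promoter entry each are printed 5′ to 3′ on the gene's strand, with matches in capitals. The windows of PHYH and, in part, of ALKBH2 and ALKBH8 lie inside the GENCODE span of the gene, which starts further upstream. The entries are PHYH (chr10:13299764-13300013, minus strand, GC 76.0%, HIF core at 111 and 6 bases before the start on the opposite strand), KDM7A (chr7:140176984-140177233, minus strand, GC 81.6%, HIF core at 180), ALKBH8 (chr11:107565736-107565985, minus strand, GC 48.8%, GATA motif at 187) and ALKBH2 (chr12:109093473-109093722, minus strand, GC 64.4%, HIF core at 39).
PHYH: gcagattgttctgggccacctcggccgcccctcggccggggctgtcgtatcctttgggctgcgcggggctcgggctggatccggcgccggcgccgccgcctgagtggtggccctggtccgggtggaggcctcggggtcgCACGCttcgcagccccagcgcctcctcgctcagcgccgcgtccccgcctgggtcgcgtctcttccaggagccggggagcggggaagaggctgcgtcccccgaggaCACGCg
KDM7A: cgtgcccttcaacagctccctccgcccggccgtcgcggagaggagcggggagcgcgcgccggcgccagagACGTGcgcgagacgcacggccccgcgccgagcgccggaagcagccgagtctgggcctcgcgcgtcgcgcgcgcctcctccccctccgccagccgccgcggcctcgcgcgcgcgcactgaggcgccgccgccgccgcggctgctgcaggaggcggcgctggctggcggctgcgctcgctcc
ALKBH8: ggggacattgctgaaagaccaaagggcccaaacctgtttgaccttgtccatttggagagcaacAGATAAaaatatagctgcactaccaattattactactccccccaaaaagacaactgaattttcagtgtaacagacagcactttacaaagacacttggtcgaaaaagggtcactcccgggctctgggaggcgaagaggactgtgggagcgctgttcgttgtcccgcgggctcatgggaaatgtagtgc
ALKBH2: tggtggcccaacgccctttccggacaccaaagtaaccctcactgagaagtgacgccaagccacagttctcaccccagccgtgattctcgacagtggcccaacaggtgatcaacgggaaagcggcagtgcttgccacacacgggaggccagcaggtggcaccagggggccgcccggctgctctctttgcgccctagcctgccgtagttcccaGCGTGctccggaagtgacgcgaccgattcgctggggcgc

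Among the other hydroxylases, 7 of 8 had a log2 fold change below 0 (48.9% of all genes did), and that of ASPH was the lowest of all 33 members. ASPH (chromosome 8, 61500556 to 61714640), aspartate beta-hydroxylase of the endoplasmic reticulum, which hydroxylates EGF-like domains, gave 89.6, 90.6 and 97.8 CPM in −Dox and 59.0, 64.4 and 61.6 CPM in +Dox. The groups were well apart, and ASPH fell by 0.59 on the log2 scale (SE 0.054, edgeR adjusted p = 1.82e-05), from 92.7 ± 4.50 to 61.6 ± 2.71 CPM (SD, n = 3). RIOX2 (chr3:97941818-97972457), a ribosomal oxygenase that hydroxylates a histidine in a ribosomal protein, gave 56.5, 56.5 and 60.9 CPM in −Dox and 46.6, 45.5 and 44.9 CPM in +Dox. It fell by 0.34 (SE 0.052, adjusted p = 7.81e-04 by edgeR) without overlap, but 27.9% of its exon bases are shared with CRYBG3 on the opposite strand (log2 fold change 0.08, edgeR adjusted p = 0.577), and strand use in counting is not given in the sources used here.

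PHYH (chr10:13277796-13302412), the peroxisomal phytanoyl-CoA hydroxylase of branched-chain fatty acid breakdown, went the other way. Its values were 10.8, 11.8 and 10.6 CPM in −Dox and 15.4, 14.4 and 14.6 CPM in +Dox, without overlap. It rose by 0.42 on the log2 scale (SE 0.075, edgeR adjusted p = 0.00246), a 1.34-fold change. The remaining 5 hydroxylases did not pass. JMJD6, which hydroxylates lysines of splicing factors, was at -0.22 (edgeR adjusted p = 0.0514) with overlapping libraries, and passed in 7 of 14 alternative analyses but not with the length offset (0.136). OGFOD1, which hydroxylates a ribosomal protein, was at -0.14 (adjusted p = 0.0596 by edgeR), with 125.5, 122.3 and 117.8 CPM in −Dox and 110.6, 112.6 and 109.2 CPM in +Dox. JMJD4, which hydroxylates a translation termination factor, was at -0.19 (edgeR adjusted p = 0.0775) and shares 53.8% of its exon bases with SNAP47 on the opposite strand. OGFOD2 was at -0.19 (edgeR adjusted p = 0.114) and overlapped in TPM. It shares 67.6% of its exon bases with a noncoding gene of the same strand and 36.1% with ABCB9 on the opposite strand. It passed (edgeR adjusted p = 0.0369) without −Dox replicate 1, and was at -0.08 (edgeR adjusted p = 0.663) with the length offset. RIOX1, a relative of RIOX2, was at -0.16 (edgeR adjusted p = 0.306).

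In the ALKBH and FTO family, 2 of 9 genes were lower and none higher, against 7.68% and 8.16% of all genes. ALKBH8 (chr11:107502727-107565742), which modifies wobble uridines of tRNA, gave 29.7, 25.5 and 25.5 CPM in −Dox and 21.5, 21.3 and 21.4 CPM in +Dox. It fell by 0.33 (SE 0.068, edgeR adjusted p = 0.00556) with no overlap, but its TPM overlapped and its edgeR adjusted p was 0.123 with the length offset. ALKBH2 (chr12:109088188-109093631), which repairs alkylated bases in DNA, gave 27.0, 30.5 and 30.5 CPM in −Dox and 26.3, 23.5 and 24.1 CPM in +Dox. The lowest −Dox and the highest +Dox library lay close together, and ALKBH2 fell by 0.25 (SE 0.068, edgeR adjusted p = 0.0236). Its call was lost when −Dox replicate 2 (edgeR adjusted p = 0.0887) or 3 (0.0918) was left out, when +Dox replicate 2 (0.0894) or 3 (0.0901) was, and with a replicate block (0.0547).

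The other 7 members of the family did not pass, with edgeR adjusted p between 0.205 and 0.896. ALKBH1, a mitochondrial and tRNA demethylase, was at -0.14, ALKBH3, which repairs alkylated RNA and single-stranded DNA, at -0.18, and ALKBH5 and FTO, the demethylases of N6-methyladenosine and related marks in mRNA, at -0.08 and -0.03. ALKBH7, a mitochondrial protein, was at 0.09, ALKBH6 at -0.02 and ALKBH4 at 0.03. ALKBH4 shares 25.6% of its exon bases with ORAI2 on the opposite strand, which was higher (0.40, edgeR adjusted p = 4.52e-04). ALKBH6 shares 25.1% with a noncoding gene of the same strand, which did not pass (0.69, edgeR adjusted p = 0.246). The sign of ALKBH4, ALKBH6, ALKBH7 and FTO changed under at least 1 alternative.

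The histone demethylases were split, with 7 of 13 above 0 and 6 below, though KDM4A, KDM5A and PHF2 fell below 0 in TPM. KDM7A (chr7:140084746-140176983), which removes methyl groups from histone H3 lysines 9 and 27, gave 42.8, 41.1 and 37.2 CPM in −Dox and 47.4, 50.9 and 52.3 CPM in +Dox. It rose by 0.32 (SE 0.063, edgeR adjusted p = 0.0047), with no overlap in CPM but with overlap in TPM (4.04-5.82 in −Dox and 4.98-7.24 in +Dox), and its edgeR adjusted p was 0.138 with the length offset. KDM2B (chr12:121429096-121581023), an H3 lysine 36 demethylase that recruits a polycomb complex to CpG islands, gave 36.1, 36.4 and 38.5 CPM in −Dox and 33.1, 32.8 and 31.8 CPM in +Dox. It fell by 0.18 (SE 0.054, edgeR adjusted p = 0.0345), a change of -12.0%, and its call was lost without each library but −Dox replicate 1, with edgeR adjusted p of 0.0709 and 0.128 without −Dox replicates 2 and 3 and of 0.0703, 0.0775 and 0.115 without +Dox replicates 1, 2 and 3. The edgeR call was also lost with a replicate block (0.0891) and with the length offset (0.0881, at -0.27 on the log2 scale).

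KDM6B, an H3 lysine 27 demethylase, was at -0.26 (edgeR adjusted p = 0.0633), its values being 13.6, 13.2 and 11.6 CPM in −Dox and 11.5, 10.8 and 9.78 CPM in +Dox, and it passed without −Dox replicate 3 (edgeR adjusted p = 0.0416). Its size depended on the scale: it was at -0.78 with the length offset (edgeR adjusted p = 0.241) and at -0.65 by limma on TPM (adjusted p = 0.488), and its TPM overlapped (1.69-5.62 in −Dox and 1.31-2.34 in +Dox). KDM2A, the paralog of KDM2B, was at -0.16 (edgeR adjusted p = 0.0699) and passed without −Dox replicate 1 (0.0465), but was at -0.05 with the length offset (0.72) and overlapped in TPM. KDM5B, an H3 lysine 4 demethylase, was at -0.12 (edgeR adjusted p = 0.154). KDM4B, an H3 lysine 9 demethylase, was at 0.15 (edgeR adjusted p = 0.171) with no overlap. KDM6A (0.12), KDM4A (0.10), KDM3B (0.08), PHF2 (0.07) and KDM5A (0.06) were above 0, and KDM4C (-0.04) and PHF8 (-0.08) below, with edgeR adjusted p between 0.223 and 0.772. KDM4A was at -0.20 with the length offset and at -0.22 by limma on TPM. It shares 40.2% of its exon bases with a gene of the same strand that was at 0 CPM in both groups.

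By edgeR, 0 of the 3 TET genes passed (15.8% of all genes did). None of the 3 had an unadjusted p under 0.05, against 6025 of 21045 genes tested. TET1 gave 49.5, 45.0 and 41.4 CPM in −Dox and 46.2, 46.2 and 46.9 CPM in +Dox (log2 fold change 0.03, edgeR adjusted p = 0.788). TET2 was at 0.14 (edgeR adjusted p = 0.217) and TET3 at -0.005 (edgeR adjusted p = 0.971). The libraries of the groups overlapped for each TET gene.

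Per length, the members spanned a wide range of levels. With all transcripts of a gene summed, OGFOD1 was highest at 66.9 TPM over the 6 libraries, followed by ALKBH7 (52.9), ALKBH2 (32.3), JMJD6 (27.9), ASPH (25.6) and RIOX2 (22.9), and TET3 was lowest at 1.96 TPM. In transcripts with the canonical start and stop alone, OGFOD1 was at 21.7 TPM, below ALKBH7 (47.8) and JMJD6 (24.5). The place of TET3 rests on −Dox replicate 2, where KDM6B was at 5.62 TPM. Without that library KDM6B was lowest (1.98 TPM, as for TET3), as it was within +Dox (1.87 against 1.88 TPM). Of the 5.62 TPM, 3.96 TPM lay in KDM6B transcripts with no coding region annotated. These were at 0.669 and 0.146 TPM in −Dox replicates 1 and 3. The median of all genes tested was 3.13 TPM, and TET3, KDM6B (2.58) and PHF2 (2.68) lay below it. Within classes, the highest and lowest were TET1 (4.53) and TET3, KDM5B (18.8) and KDM6B, ALKBH7 and ALKBH1 (6.81), and OGFOD1 and RIOX1 (3.24). The place of KDM6B below PHF2 was not stable: PHF2 was the lower without −Dox replicate 3 (2.61 against 2.76 TPM), without +Dox replicate 1 (2.70 against 2.71) or 3 (2.70 against 2.84), and within −Dox (2.705 against 3.298). Of 32 neighbouring pairs in this order, 15 overlapped in both groups and 7 in neither. Some places within classes held only with all transcripts summed. In transcripts with the canonical start and stop alone, KDM5B was at 3.23 TPM, below KDM3B (7.28) and KDM6A (5.17), among others. By that measure FTO was at 0.0319 TPM, below ALKBH1 (3.71).

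**Figure D3:**
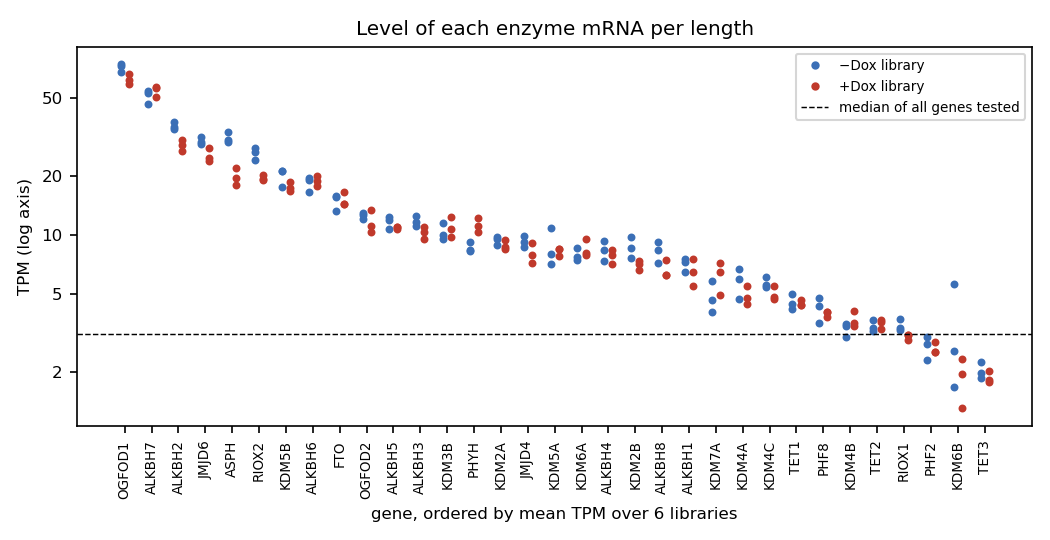
TPM (log axis) of each member in the 6 libraries (blue −Dox, red +Dox), ordered by mean TPM over 6 libraries, with the median of all genes tested (3.13 TPM) as a dashed line. OGFOD1 (66.9 TPM) and ALKBH7 (52.9 TPM) lie above the others, and TET3 (1.96 TPM) is lowest on average, next to KDM6B with its single high −Dox library (5.62 TPM).

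The transcripts of the members were then compared, since several members are known to have short protein forms without the catalytic domain. Members had 384 transcripts listed, and 109 transcripts of 29 members were tested for their share of the gene. By limma, 0 passed an adjusted p under 0.05, against 0.0899% of all transcripts, and 7 had an unadjusted p under 0.05 (6.42%, against 7.5% of all transcripts). The smallest p were for the canonical KDM4A-201, whose share was 59.2 ± 7.83% in −Dox and 75.3 ± 0.604% in +Dox (limma adjusted p = 0.595), and for KDM2A-212, whose share was 24.2 ± 0.380% and 17.3 ± 1.02% (limma adjusted p = 0.595). ALKBH1-204, a transcript annotated as a target of nonsense-mediated decay, was at 34.3 ± 3.56% and 22.2 ± 4.32% (limma adjusted p = 0.622). KDM4A-205, KDM5B-236 and ALKBH3-209 followed, with shares under 10% on average in either group and limma adjusted p of 0.658, 0.663 and 0.664. For the level of each transcript, 0 of 225 tested passed by edgeR (0.204% of all transcripts did), and 22 had an unadjusted p under 0.05 (9.78%, against 10% of all transcripts). In fits without 1 library, FTO-202 passed without −Dox replicate 2 (limma adjusted p = 0.0187) and OGFOD2-214 without −Dox replicate 1 (0.0217); each was at 0 in both remaining −Dox libraries, and the cause was not tested.

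ASPH, KDM2A and KDM2B were read by the ends of their coding regions. For ASPH, which is known to have short forms without the C-terminal hydroxylase domain, coding transcripts with the canonical start but another stop, such as ASPH-211 (810 coding bases, against 2274 in the canonical ASPH-203), summed to 13.3, 13.2 and 15.1 TPM in −Dox and 7.15, 8.81 and 6.95 TPM in +Dox. The canonical form was at 7.24, 8.02 and 8.01 TPM in −Dox and 4.99, 5.92 and 5.77 TPM in +Dox. Neither set overlapped between groups. The share of the start-only forms was 44.4% in −Dox and 38.4% in +Dox, and that of coding transcripts with neither canonical end, which are also shorter, was 13.0% and 20.1%, each without overlap. Together these made up 57.4% of the gene in −Dox and 58.5% in +Dox, with overlap. At the transcript level, ASPH-211 was at -0.93 on the log2 scale (SE 0.13, edgeR adjusted p = 0.0774) and ASPH-203 at -0.40 (SE 0.088, edgeR adjusted p = 0.196), so neither passed.

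For KDM2A, which is known to have a short form without the JmjC domain, KDM2A-212 (2169 coding bases against 3486, with the canonical stop and another start) was at 2.28 TPM in −Dox and 1.54 TPM in +Dox with no overlap, while the canonical form was at 2.28 and 2.08 TPM and overlapped. For KDM2B, the form of this kind (KDM2B-214, which starts after 1896 of the 4008 canonical coding bases) was at 3.38 and 2.11 TPM, without overlap but with 2.49 TPM in the lowest −Dox library and 2.38 TPM in the highest +Dox library, and the canonical form was at 2.57 and 2.89 TPM with overlap. The transcripts KDM2A-212 (log2 fold change -0.50, edgeR adjusted p = 0.211) and KDM2B-214 (-0.61, edgeR adjusted p = 0.426) did not pass. For the other called members, transcripts with the canonical start and stop differed in the direction of the gene: PHYH 7.06 to 8.98 TPM, KDM7A 4.28 to 5.19, RIOX2 14.8 to 12.1, ALKBH8 6.59 to 5.09 and ALKBH2 22.7 to 19.0 TPM, each without overlap. Such transcripts were also lower without overlap in the uncalled ALKBH3, JMJD4, JMJD6, KDM5B, KDM6B, OGFOD1 and RIOX1. No share over all genes is given for this class, so the lack of overlap is only a description.

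**Figure D4:**
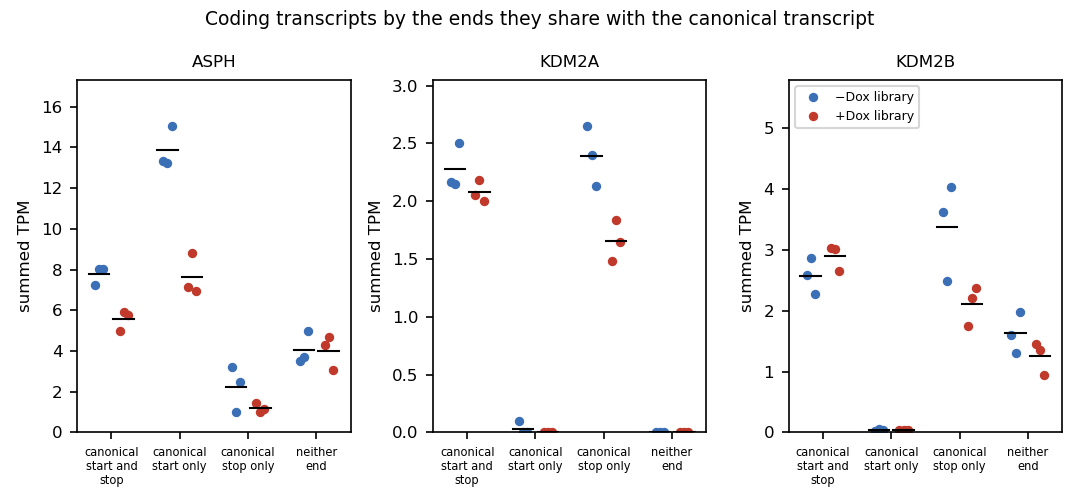
Summed TPM per library (dots; blue −Dox, red +Dox; black line, mean of 3) of ASPH, KDM2A and KDM2B coding transcripts, by whether they share the canonical start and stop, the start only, the stop only, or neither end. The ASPH start-only forms are at 13.9 (−Dox) and 7.64 TPM (+Dox) on average, and the neither-end forms are at 4.07 and 4.02 TPM.

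The share of a gene's TPM in transcripts with coding exons identical to the canonical ones had a median of 59.3% over the members, was under 50% in 13 of them and at least 80% in 9. FTO was lowest, with 0.209% in the canonical form and 52.2% in −Dox and 45.9% in +Dox in transcripts annotated for nonsense-mediated decay.

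Related gene lists were counted in the same fit, against 8.16% of all genes higher and 7.68% lower. Among other 2-oxoglutarate oxygenases, 3 of 22 tested were higher and 2 lower (median 0.01), including TMLHE of carnitine synthesis (0.44, edgeR adjusted p = 0.00102), the collagen-modifying enzyme P3H3 (-0.54, edgeR adjusted p = 0.00419) and the H3 lysine 4 demethylase KDM5C (-0.21, edgeR adjusted p = 0.00969). The TPM of TMLHE and KDM5C overlapped, and both calls were lost with the length offset (TMLHE 0.25, edgeR adjusted p = 0.131; KDM5C -0.30, 0.12); by limma on TPM, TMLHE was at 0.21 (adjusted p = 0.368). Among the writers of the marks that members remove, 3 of 30 were higher and 4 lower (median -0.05). Of the 30 writers, 21 had a log2 fold change below 0, as did 10 of the 22 other oxygenases, against 48.9% of all genes. EED, a polycomb subunit, was at -0.39 (edgeR adjusted p = 1.67e-04), the DNA methyltransferase DNMT3B at -0.35 (edgeR adjusted p = 4.51e-04) and EZH1, an H3 lysine 27 methyltransferase, at 0.42 (edgeR adjusted p = 0.00108).

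The flavin-dependent demethylases, which use no iron, were KDM1B (-0.16, edgeR adjusted p = 0.0384, lost without each library but −Dox replicate 3, with adjusted p up to 0.117) and KDM1A (-0.04, edgeR adjusted p = 0.615). In all, KDM1B lost its call in 8 of 14 alternatives, with an adjusted p of 0.219 by limma on TPM. Of 12 genes of 2-oxoglutarate metabolism, 1 was higher and 2 lower (median 0.01), with a log2 fold change below 0 for 6. IDH2, the mitochondrial NADP-dependent isocitrate dehydrogenase, was at 0.49 (edgeR adjusted p = 5.34e-04). The subunits IDH3A (-0.21) and IDH3B (-0.18) of the NAD-dependent enzyme had edgeR adjusted p of 0.0161 and 0.0237, and the calls were lost without some libraries: for IDH3A without −Dox replicate 2 (0.0764) or +Dox replicate 3 (0.0716), and for IDH3B without −Dox replicate 2 (0.0658) or 3 (0.0834) and without +Dox replicate 2 (0.104) or 3 (0.0537). IDH3A was at -0.38 with the length offset (edgeR adjusted p = 0.0115).

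**Figure D5:**
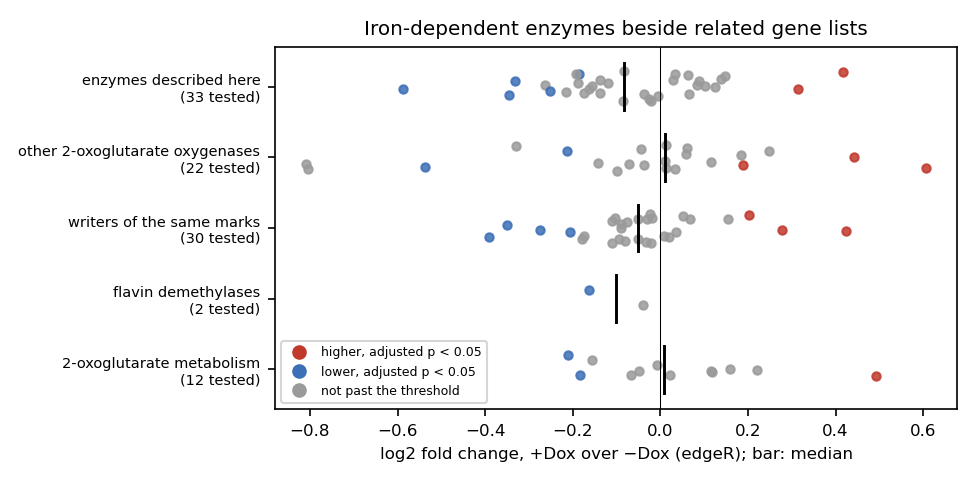
Log2 fold change (+Dox over −Dox, edgeR) of each gene tested in 5 lists, with called genes in red (higher) or blue (lower) and the list median as a bar. The medians are -0.08, 0.01, -0.05, -0.10 and 0.01 from top to bottom.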

How the data were processed

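Salmon 1.10.2 quantification files were analysed for the 6 libraries. The authors quantified polyA reads against transcripts and deposited estimated counts and TPM per transcript, with hg38 named as build; strand and bias settings are not given in the sources used here. Estimated counts were summed per gene with GENCODE release 44 (251612 of 252045 transcripts matched by identifier; the rest held 0.125-0.138% of counts) and rounded, and TPM was summed as deposited. Differential expression used edgeR 4.0.16 (quasi-likelihood, TMM factors 0.974-1.03) in R 4.3.3 for genes with a mean count above 10, with no covariate. Replicates were checked for identity and differed by more than counting noise (chi-square per gene 8.28-17.5). Shares of a gene's TPM were tested with limma 3.58.1 on log2 ratios with a pseudocount of 0.1 TPM. DESeq2 1.42.0, other filters, a transcript-length offset, limma on TPM, each library left out and a replicate block were alternatives. The code was tested on simulated data.

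The members and the gene lists were chosen with earlier results of these data known. Genes named were PCBP1, members past the threshold (with library values), the highest and lowest member of each class, up to 5 non-overlapping members that missed it, the 3 smallest p of each other list and the 6 member transcripts with the smallest p for share; the other members are given so that each is accounted for, and the coding-end classes were chosen after their values were seen. The pairing check is in the closing section. A further erythroid marker of the list is not reported here.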

Additional observations from a re-analysis of the deposited data

How the results depend on the processing

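Under 14 alternatives, the 7 called members kept their sign, and 5 of them (ASPH, RIOX2, PHYH, KDM7A, ALKBH8) passed in all 6 analyses without 1 library. Among single genes, 529 of 616 values kept direction and side of the threshold, 47 lost the call, 17 gained it and 23 changed sign. The cause was not tested.

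The number of members past the threshold (7) was 11 by DESeq2, 4 with the length offset, 0 by limma on TPM and 5 to 10 without 1 library. Over all genes (3333), 3939 passed by DESeq2, 1882 with the length offset, 338 by limma on TPM and 2267 to 3313 without 1 library. With the fold limit (308), 515 passed with all genes of any count and 112 by limma on TPM. In the other lists (16), 8 passed with the length offset, 0 by limma on TPM and 9 to 15 without 1 library. For transcript share over all transcripts (33), 11 passed with a pseudocount of 1 TPM, 57 from estimated counts, 15 for shares between 10% and 90% and 30 to 52 without 1 library. For member transcripts, 0 to 1 passed without 1 library. The level of each member transcript was added as an alternative chosen after seeing the data.

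Sign changes occurred in 9 uncalled members, whose main values were within 0.102 of 0 on the log2 scale. With the length offset, KDM4A was at -0.203, KDM5A at -0.027, ALKBH4 at -0.063, FTO at 0.056 and ALKBH6 at 0.075. By limma on TPM, KDM4A was at -0.224, KDM5A at -0.042, ALKBH4 at -0.094, PHF2 at -0.023, TET1 at -0.008, FTO at 0.026 and ALKBH6 at 0.04. Without 1 library, ALKBH7 ranged from -0.01 to 0.149, TET1 from -0.026 to 0.101, FTO from -0.086 to 0.007, ALKBH6 from -0.096 to 0.021, ALKBH4 from -0.062 to 0.122 and TET3 from -0.054 to 0.023.

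Labels give both groups replicates 1 to 3. Same-numbered libraries did not deviate together (r = -0.0344, -0.123 and 0.0181 across genes), and unlike-numbered ones gave r from -0.114 to 0.148. From 3 libraries a group, such values cannot show whether same-numbered libraries were handled together. With the replicate number as a block, 5 members passed (ALKBH2 and KDM2B were lost), 2490 of all genes, 11 in the other lists and 0 transcripts for share.

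Members held 578 to 10623 estimated counts per library, and 3 libraries a group limit the precision of every value given.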
